A study of Mus musculus with 9 samples.

Results

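The 10 genes described here carry iron through a cell. They comprise 4 genes of uptake (Tfrc, Steap3, Slc11a2 and Slc11a1), the ferritin subunit genes Fth1 and Ftl1, the exporter gene Slc40a1, the haem oxygenase gene Hmox1, and the iron-sensing regulator genes Ireb2 and Aco1. They are 10 of the 17134 genes with a value in each of the 9 libraries, and each of the 10 was found by its symbol in every library. The members were chosen by role and with measured values in view, since the rise of Tfrc against the controls in these libraries was part of the choice, so their differences from the controls are given as a description with no test.

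The libraries were made from subcutaneous tumours of MC38, a mouse colon adenocarcinoma line, grown in C57BL/6 mice and taken on day 20. The cells carried a non-targeting shRNA (NTC) or 1 of 2 shRNAs against Gad1, called shA and shB, with 3 libraries per group. Cells of all groups, the controls included, had been infected with lentivirus and selected with puromycin, and the shRNA was in the implanted cells, so the host cells in each tumour kept their own Gad1. The sources used here give neither the age and sex of the mice nor whether the lines were clones or pools. They also do not tie tumours to single mice, and p-values therefore measure the spread between these libraries.

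Cells take up iron bound to transferrin through the transferrin receptor, encoded by Tfrc. In the endosome the reductase STEAP3 reduces the iron and DMT1, encoded by Slc11a2, moves it into the cytosol, while the related NRAMP1, encoded by Slc11a1, does so at the phagosome of macrophages. Iron not used at once is stored in ferritin, a shell of heavy (Fth1) and light (Ftl1) chains, or leaves through ferroportin, encoded by Slc40a1. Haem oxygenase 1, encoded by Hmox1, frees iron from haem. The iron regulatory proteins, encoded by Aco1 and Ireb2, bind a hairpin called the iron-responsive element (IRE) when cellular iron is low. Binding in a 3′ untranslated region (UTR) protects the Tfrc transcript, and binding in a 5′ UTR holds back translation of ferritin and ferroportin.

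The IREs of the members are shown because their place sets whether regulation through them acts on the transcript or on translation, and RNA-seq measures the transcript. Only the matched members are placed this way, and other regulation of the same genes is not covered. The search, on the sense strand of GENCODE M21 transcripts (GRCm38), asked for an unpaired C, 5 bases, the loop CAGTGN and 5 bases pairing with the first 5, with G-T pairs allowed. It matched 31 of 21877 genes in a 5′ UTR (0.142%) and 129 in a 3′ UTR (0.59%). Among the 10 members, 3 matched in the 5′ UTR and 1 in the 3′ UTR. Each match is printed 5′ to 3′ as a window of 30 bases with the loop in capitals.
Tfrc, 3′ UTR, chr16:32631218-32631247, plus strand: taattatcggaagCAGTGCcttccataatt
Tfrc, 3′ UTR, chr16:32631597-32631626, plus strand: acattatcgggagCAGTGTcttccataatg
Tfrc, 3′ UTR, chr16:32631662-32631691, plus strand: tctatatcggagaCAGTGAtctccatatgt
Tfrc, 3′ UTR, chr16:32631709-32631738, plus strand: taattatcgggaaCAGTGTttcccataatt
Fth1, 5′ UTR, chr19:9982731-9982760, plus strand: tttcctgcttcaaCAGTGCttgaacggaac
Ftl1, 5′ UTR, chr7:45459779-45459808, minus strand: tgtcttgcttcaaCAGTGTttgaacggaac
Slc40a1, 5′ UTR, chr1:45925465-45925494, minus strand: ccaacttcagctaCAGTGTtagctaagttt
The 4 Tfrc matches lay within 521 bases. The Fth1 and Ftl1 hairpins shared the same stem letters around the loop, and that of Slc40a1 had a different stem. The Fth1 element was in 4 of its 5 coding transcripts, the Tfrc elements in 1 of 3, the Ftl1 element in 1 of 2 and the Slc40a1 element in 1 of 4. The other 6 members held no match, which says only that these letters are not in their annotated UTRs.

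Gad1, the targeted gene, had 281, 265 and 326 normalized reads in the NTC libraries, 13.1, 23.4 and 50.0 in shA and 21.8, 42.2 and 23.6 in shB. It was 10.8-fold lower in the knockdown libraries (two-sided exact permutation test over 84 assignments, p = 0.0119). Reads assigned to genes ranged from 18373748 to 24918174 per library. Epithelial markers, which an adenocarcinoma should carry, summed to 30904 to 37988 normalized reads in NTC and 37703 to 61206 in the knockdown libraries. Of 9 genes, 2 were higher and 2 lower without overlap, and the intestinal marker Cdx1 was at 0 in 2 libraries. Some libraries stood apart. NTC replicate 1 had 58741 normalized reads from 4 globin genes against at most 6222 elsewhere, shA replicate 1 had 2078 reads from 4 neutrophil markers against at most 443 elsewhere, and shB replicate 1 had 8574 reads from skeletal muscle markers against at most 1787 elsewhere. Macrophage markers differed between the groups: the sum over 12 genes was 3379, 7226 and 7153 in NTC, 45294 to 50604 in shA and 29768 to 39053 in shB, and 11 of the 12 did not overlap. Neutrophil markers were also higher as a group, at 57.6 to 74.3 in NTC and 215 to 2078 in the knockdown libraries, and red blood cell markers were lower, at 3336 to 58741 in NTC and 155 to 2487 in the knockdown libraries, with 2 of the 4 globin genes not overlapping. Fibroblast markers summed to 5919 to 9372 in NTC and 9269 to 24792 in the knockdown libraries. Of these 6 genes, 4 were higher and 1 was lower without overlap. Beside these marker counts, 16.0% of all genes with enough reads to be tested were higher without overlap and 13.6% were lower.

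Of the 10 members, 6 were higher in every knockdown library than in every NTC library (Tfrc, Steap3, Slc11a1, Fth1, Slc40a1 and Slc11a2), 1 was lower (Hmox1), and Ftl1, Ireb2 and Aco1 overlapped. Of the 14600 genes with enough reads to be tested, 16.0% were higher without overlap and 13.6% were lower, and nothing is read from the members' count because the choice used that contrast. The median log2 difference of the members, both shRNAs minus NTC, was 0.39 beside -0.03 over all tested genes. It was 0.46 beside 0.00 for shA and 0.38 beside -0.04 for shB. In bulk tumours, a change in the number of cells of a type and a change in RNA per cell cannot be told apart, and this holds for each value that follows.

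**Figure D1:**
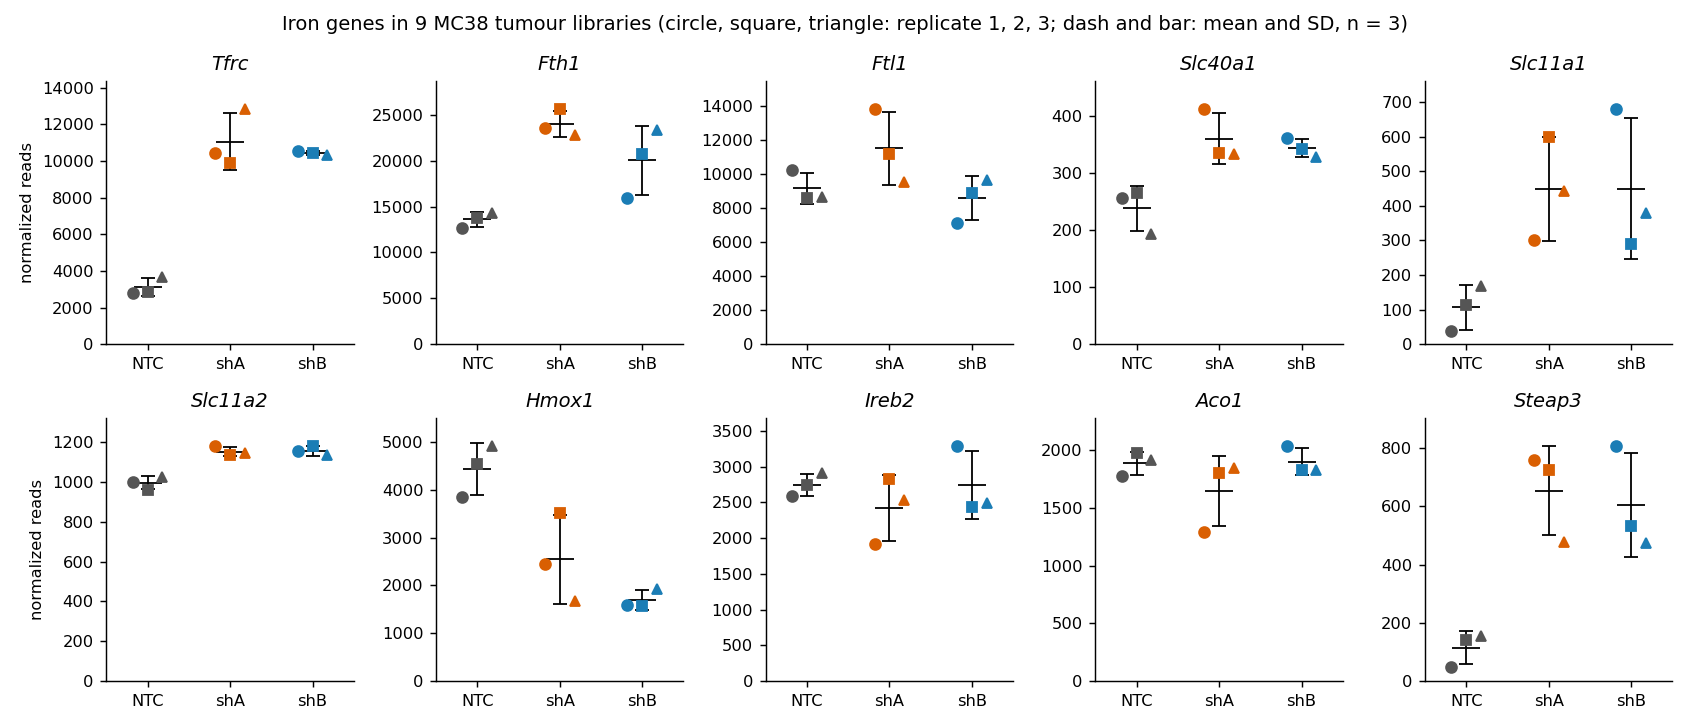
Normalized reads (linear axes starting at 0, one scale per gene) of the 10 iron genes in each of the 9 libraries, grouped as NTC, shA and shB, with a circle, square and triangle for replicates 1, 2 and 3 and a dash and bar for the mean and SD. Tfrc lies between 2810 and 3684 in NTC and between 9904 and 12819 in the knockdown libraries, while Ireb2 and Aco1 overlap between the groups.

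Tfrc had 2810, 2851 and 3684 normalized reads in the NTC libraries, 10447, 9904 and 12819 in shA, and 10516, 10419 and 10321 in shB. The lowest knockdown library was 2.69 times the highest NTC library. The mean was 3115 ± 493 (SD, n = 3) in NTC, 11057 ± 1550 in shA and 10419 ± 97.1 in shB. On the log2 scale (normalized reads + 0.5), the difference of both shRNAs from NTC was 1.79 with a standard error (SE) of 0.12, or 3.46-fold, with 1.83 for shA and 1.75 for shB. The 3 shB libraries varied by 0.932% (coefficient of variation), against the 0.975% that counting error alone gives, whereas NTC varied by 15.8% and shA by 14.0%. With any 1 library left out, the log2 difference stayed between 1.72 and 1.92. Tfrc was listed on the first row of each of the 9 deposited tables.

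Steap3, the endosomal ferrireductase, had 48.4, 139 and 154 normalized reads in NTC, 760, 724 and 478 in shA and 808, 532 and 473 in shB. The lowest knockdown library was well above the highest NTC library, and the spread within each group was wide. The log2 difference was 2.59 (SE 0.36), a 6.04-fold higher level and the largest of the 10 members. NTC replicate 1, the globin-rich library, held the lowest value, and the fold was 4.19 without it. It was 3.70 when the first library of each group was left out.

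Slc11a1, the phagosomal transporter of macrophages, had 37.2, 114 and 168 normalized reads in NTC, 302, 600 and 443 in shA, and 679, 290 and 378 in shB. The groups did not overlap, although the NTC values differed among themselves several-fold. The log2 difference was 2.24 (SE 0.46), or 4.74-fold. NTC replicate 1 rested on 33 reads, and without it the fold was 3.06.

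Slc11a2, encoding the endosomal and intestinal transporter DMT1, had the narrowest difference of the members that did not overlap. Its values were 998, 961 and 1026 in NTC, 1181, 1133 and 1145 in shA, and 1155, 1181 and 1133 in shB. The difference was 0.22 on the log2 scale (SE 0.09), or 1.16-fold. The libraries of a group varied by 3.29% in NTC, 2.16% in shA and 2.08% in shB, close to the 3.22%, 2.86% and 2.93% that counting gives.

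The 2 ferritin genes differed from each other. Fth1, the heavy chain with the ferroxidase centre, had 12693, 13789 and 14291 normalized reads in NTC, 23559, 25597 and 22808 in shA, and 15979, 20759 and 23363 in shB. Every knockdown library was above every NTC library, with a log2 difference of 0.68 (SE 0.13), or 1.60-fold, made up of 0.82 for shA and 0.54 for shB. Ftl1, the light chain, had 10198, 8596 and 8655 in NTC, 13784, 11157 and 9516 in shA, and 7139, 8893 and 9644 in shB. Its groups overlapped, with a log2 difference of 0.11 (SE 0.15). The ratio of Fth1 to Ftl1 reads was 1.24, 1.60 and 1.65 in NTC, 1.71, 2.29 and 2.40 in shA, and 2.24, 2.33 and 2.42 in shB, without overlap between NTC and the knockdown libraries. Both ferritin genes have processed copies in the mouse genome, and the sources used here do not say how reads shared with copies were assigned, so these 2 levels are uncertain to that extent.

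Slc40a1, the only known cellular iron exporter of mammals, had 256, 266 and 193 normalized reads in NTC, 412, 336 and 334 in shA and 361, 343 and 329 in shB. The difference was 0.57 on the log2 scale (SE 0.16), or 1.49-fold, and the groups did not overlap. The ratio of Tfrc to Slc40a1 reads was 11.0, 10.7 and 19.1 in NTC and 25.4 to 38.4 in the knockdown libraries, so the uptake gene was further above its NTC level than the export gene. The ratio of Tfrc to the sum of the 2 ferritin genes was 0.123, 0.127 and 0.161 in NTC and 0.269 to 0.455 in the knockdown libraries.

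Hmox1 was the member that was lower. It had 3851, 4535 and 4920 normalized reads in NTC, 2445, 3519 and 1671 in shA, and 1591, 1559 and 1932 in shB. All 6 knockdown libraries were below the lowest NTC library, shA replicate 2 by the least. The log2 difference was -1.12 (SE 0.20), a 2.18-fold lower level, with 1.81-fold for shA and 2.62-fold for shB. The enzyme breaks haem down to biliverdin, and Blvrb encodes a biliverdin reductase. The ratio of Hmox1 to Blvrb reads was 7.45, 11.4 and 12.1 in NTC and 2.07 to 5.57 in the knockdown libraries. Red blood cell markers were likewise lower in every knockdown library (155 to 2487 reads) than in every NTC library (3336 to 58741). The globin-rich NTC replicate 1 had the lowest Hmox1 of the NTC group, and the part of red blood cells in the Hmox1 difference was not tested.

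The regulators Ireb2 and Aco1 overlapped between the groups. Ireb2, encoding IRP2, had 2593, 2739 and 2908 normalized reads in NTC, 1921, 2827 and 2530 in shA, and 3291, 2438 and 2491 in shB, a log2 difference of -0.11 (SE 0.15). Aco1, encoding IRP1, which is a cytosolic aconitase when it carries its iron-sulphur cluster, had 1774, 1972 and 1911 in NTC, 1292, 1802 and 1843 in shA, and 2037, 1832 and 1830 in shB, a log2 difference of -0.10 (SE 0.13). Both genes were lowest in shA replicate 1 and highest in shB replicate 1, and their ratio stayed between 1.33 and 1.62 in the 9 libraries. Both proteins sense iron through changes of the protein, which RNA-seq does not measure.

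**Figure D2:**
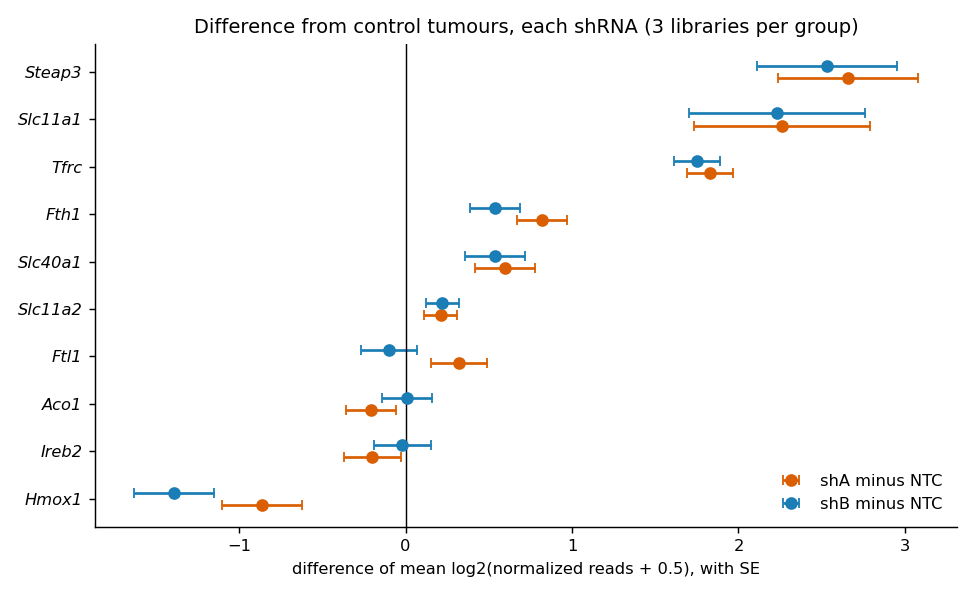
Log2 difference of the normalized reads (+ 0.5) of each iron gene, shA minus NTC and shB minus NTC, with bars for the standard error. Tfrc lies at 1.83 for shA and 1.75 for shB, Steap3 and Slc11a1 lie further out with wider bars, and Hmox1 lies below 0 for both shRNAs.

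The contrast of shA with shB does not involve the controls and was tested across all 14600 genes with limma. None of the 10 members differed at an adjusted p under 0.05, on a background of 0.00% of all genes called. For Tfrc, shA minus shB was 0.08 on the log2 scale (95% interval -0.24 to 0.40, limma adjusted p = 0.869), and for Slc11a2 it was 0.00 (-0.23 to 0.23, adjusted p = 0.989). These intervals exclude differences as large as the Tfrc difference from NTC. They were wide for Slc11a1 (-1.15 to 1.22) and Steap3 (-0.81 to 1.06). The members with the smallest p were Ftl1, higher in shA by 0.42 (limma, unadjusted p = 0.0329, adjusted p = 0.680), and Hmox1, higher in shA by 0.53 (0.00 to 1.06, unadjusted p = 0.0502, adjusted p = 0.680). At an unadjusted p under 0.05, limma placed 1010 of the 14600 genes, edgeR 1056 and DESeq2 1364. Among these, limma placed 1 of the 10 members, Ftl1, and edgeR and DESeq2 each placed 2, Ftl1 and Hmox1. Nothing is read from these counts of members. After adjustment edgeR called 0 genes and DESeq2 called 22, none of them an iron gene.

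Levels of different genes were compared per length, as normalized reads per 1000 bases of the longest coding transcript. In NTC the order was Ftl1 (9452 ± 938, SD, n = 3), Fth1 (9097 ± 547), Hmox1 (2827 ± 345), Tfrc (637 ± 101), Aco1 (492 ± 26.4), Ireb2 (476 ± 27.3), Slc11a2 (225 ± 7.41), Slc40a1 (70.7 ± 11.7), Slc11a1 (46.0 ± 28.4) and Steap3 (22.1 ± 11.1). Neighbours that overlapped in NTC were Ftl1 and Fth1, Aco1 and Ireb2, Slc40a1 and Slc11a1, and Slc11a1 and Steap3. In the knockdown groups Tfrc stood in rank 3, at 2261 ± 317 in shA and 2131 ± 19.8 in shB, and Hmox1 in rank 4, at 1622 ± 592 and 1080 ± 132. The ranges of these 2 genes overlapped in shA. Slc40a1 had the lowest level of the members in both knockdown groups, at 107 ± 13.2 and 102 ± 4.84, although it was higher there than in NTC, and its range overlapped that of Steap3 above it. When all exonic bases of the gene were used as its length, the order of Slc40a1 and Slc11a1 changed in NTC. In shA and shB, Fth1 stood above Ftl1 per base of transcript and below it per exonic base of the gene.

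**Figure D3:**
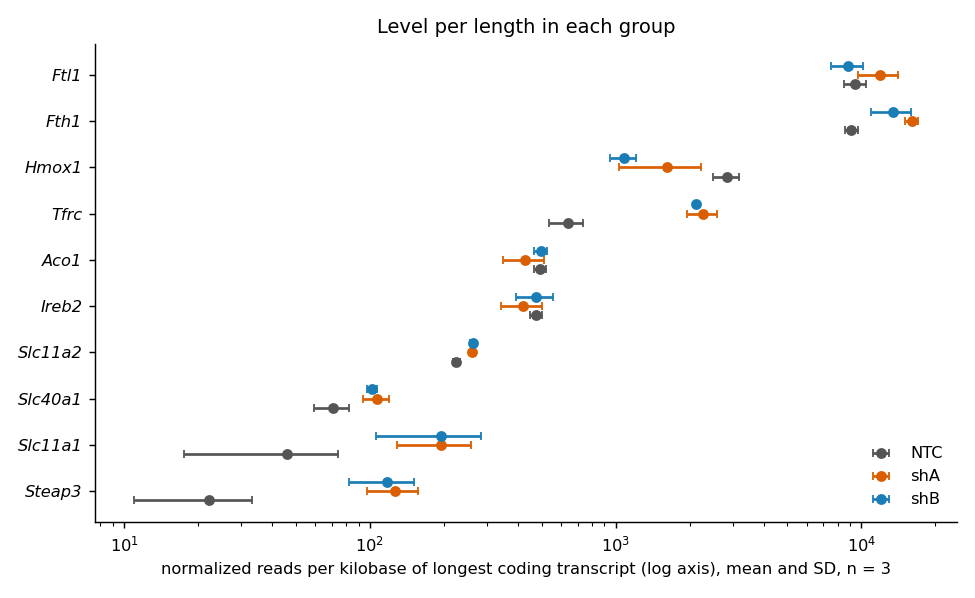
Normalized reads per 1000 bases of the longest coding transcript (log axis) for the 10 iron genes in NTC, shA and shB, with points for group means and bars for the SD of 3 libraries. Tfrc has rank 4 in NTC and rank 3 in both knockdown groups, and the ferritin genes lie above the other members throughout.

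Macrophage markers moved with several members, and Slc11a1 and Slc40a1 are known for high levels in macrophages. Per 1000 macrophage-marker reads, Slc11a1 was 11.0, 15.8 and 23.5 in NTC and 5.96 to 19.2 in the knockdown libraries, and Steap3 was 14.3, 19.2 and 21.6 in NTC and 10.6 to 22.8, so that both overlapped. Tfrc was 394 to 832 per 1000 macrophage-marker reads in NTC and 198 to 350 in the knockdown libraries, which is lower without overlap. Tfrc was thus higher than in NTC by a smaller factor than the macrophage markers. Slc40a1 was 27.0 to 75.7 on this scale in NTC and 6.71 to 11.5 in the knockdown libraries, also lower without overlap. The same held for Fth1, Ftl1, Slc11a2, Hmox1, Ireb2 and Aco1, so only Slc11a1 and Steap3 overlapped. A list of iron-recycling macrophage markers, of which 4 of 6 had values, summed to 68.7, 193 and 204 reads in NTC and 692 to 1559 in the knockdown libraries. Of these 4 genes, 2 were higher without overlap, the others, among them Cd163, overlapped, and Cd5l was at 0 in 1 library. Over all tested genes, 16.0% were higher and 13.6% were lower without overlap. T cell markers summed to 68.7 to 338 reads in NTC and 1253 to 4924 in the knockdown libraries, without overlap. On their own, 9 of 9 T cell genes were higher without overlap. The neutrophil sum was higher without overlap as well (2 of 4 genes on their own). Of 6 fibroblast markers, 4 were higher and 1 was lower without overlap. The fibroblast sums overlapped, at up to 9372 in NTC and from 9269 in the knockdown libraries. The part of these cells in the members' differences was not tested.

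**Figure D4:**
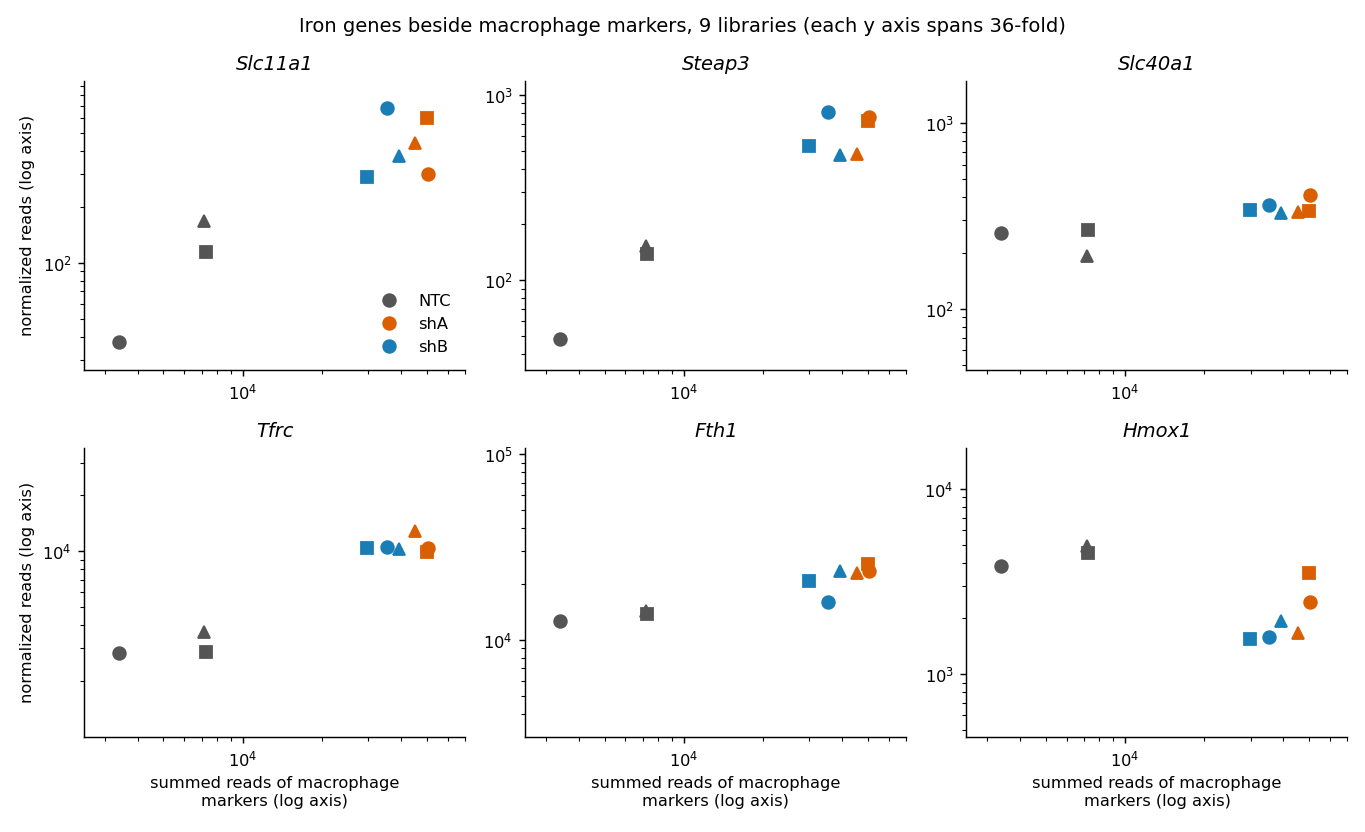
Normalized reads of 6 iron genes against the summed normalized reads of 12 macrophage markers (both log axes), 1 point per library, coloured by group and shaped by replicate. The 3 NTC libraries lie at 3379 to 7226 macrophage-marker reads and the 6 knockdown libraries at 29768 to 50604, with no library in between.

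Tfrc is also known as a gene of dividing cells. The sum of 10 proliferation markers was 53616 to 58278 reads in NTC and 41180 to 56277 in the knockdown libraries. Of the 10 genes, 0 were higher without overlap and 3 lower, beside 16.0% and 13.6% of all tested genes. Per 1000 proliferation-marker reads, Tfrc was 50.8 to 63.2 in NTC and 182 to 254 in the knockdown libraries. Ireb2 was 48.4 to 49.9 and 46.7 to 58.5 on the same scale, and Aco1 was 32.8 to 35.2 and 31.4 to 40.8, so that both overlapped. The proliferation sums overlapped between the groups, so these ratios stay close to the differences of the genes themselves. The part of dividing cells in the Tfrc difference was not tested.

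Genes with the most similar profile were ranked by the root mean square difference of the log2 values, each centred on its own mean, over the 9 libraries and 10213 genes with a mean of at least 200 normalized reads. For Tfrc these were Mapre2 (0.18), Tent5a (0.20), H2-K2 (0.21), Mmp2 (0.22) and Trafd1 (0.22), where the median over all genes was 0.92. Trafd1 had 543, 563 and 701 reads in NTC and 1347 to 2290 in the knockdown libraries. For Slc40a1 they were Tmed5 (0.11), Urgcp, Arrdc4, Actr3 and Gpr137b (0.13 each, median 0.43), and for Hmox1 they were C130074G19Rik (0.23), Rbbp9 (0.26), Ccdc40 (0.27), Mipol1 and Hoxb7 (0.28 each, median 0.65). None of these is one of the iron genes listed here. Nothing is read from that, since genes with a lower mean, among them Steap4, Slc39a8, Cp and Zc3h12a, were not compared.

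Beyond the members, 84 other iron genes had values and 77 had enough reads to be tested with limma. With both shRNAs against NTC, 11 of the 77 rose (14.3%) and 4 fell (5.19%) at an adjusted p under 0.05, beside 15.5% and 9.49% of all tested genes, so their share of rises was close to the background. For shA alone 8 rose and 0 fell, beside 11.4% and 5.59% of all genes. At an unadjusted p under 0.05, 10 fell for shA, and edgeR called 1 fall and DESeq2 called 6. The shares of all genes at these settings are not given, so nothing beyond the spread between settings is read from these counts. For shB alone 10 rose and 1 fell, beside 13.4% and 7.02%. The contrasts share the NTC libraries, so they are not independent of each other. The median log2 difference of the 77 was 0.04, beside -0.03 over all tested genes. The counts turned on single libraries. The 11 rises numbered 7 when NTC replicate 1 or NTC replicate 2 was left out and 17 when shB replicate 1 was. The 4 falls became 0 without NTC replicate 1, 2 without NTC replicate 2, NTC replicate 3, shA replicate 3, shB replicate 2 or shB replicate 3, and 7 without shA replicate 2 or shB replicate 1. For shA the 8 rises numbered 13 with shB replicate 1 left out, 4 with NTC replicate 3 left out, and 5 without NTC replicate 1, NTC replicate 2, shA replicate 1, shA replicate 2 or shB replicate 3, and the 0 falls became 1 without NTC replicate 3, 3 without shA replicate 2 and 4 without shB replicate 1. For shB the single fall became 0 without NTC replicate 1, 4 without shA replicate 1, and 2 without NTC replicate 3, shA replicate 2 or shB replicate 1.

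**Figure D5:**
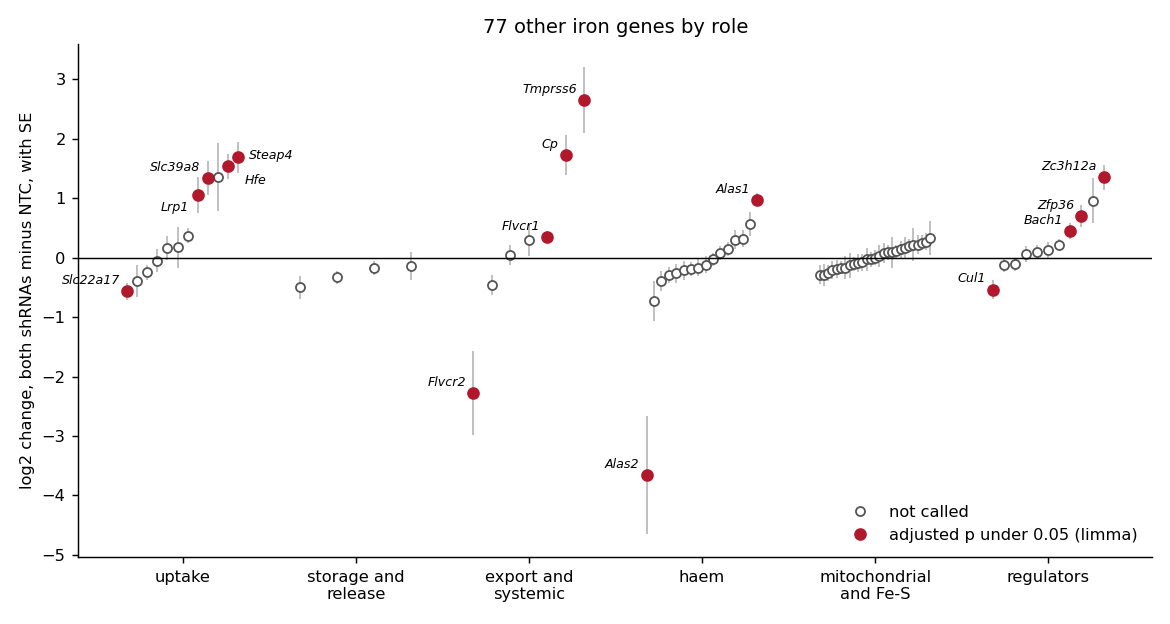
Log2 change (normalized reads + 0.5, both shRNAs minus NTC) of 77 other iron genes by role, with bars for the standard error and filled points for an adjusted p under 0.05 in limma. Called genes lie in the uptake, export, haem and regulator groups, and none of the 27 mitochondrial and iron-sulphur genes is called.

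Of 12 tested genes of uptake, 4 rose (33.3%) and 1 fell (8.33%), beside 15.5% and 9.49% of all tested genes. There were 0 falls without NTC replicate 1 and 2 without shA replicate 1. Each role holds few genes and was listed with earlier results known, so nothing is read from a count by role. Hfe, whose protein binds the transferrin receptor, had 100, 115 and 144 normalized reads in NTC, 493, 341 and 284 in shA and 340, 290 and 356 in shB. It rose 2.90-fold (log2 1.54, SE 0.21, limma adjusted p = 0.00105). Steap4, a ferrireductase of the same family as Steap3, had 34.9, 41.2 and 35.5 in NTC and 91.0 to 155 in the knockdown libraries and rose 3.23-fold (adjusted p = 0.00173, limma). Slc39a8, which encodes the metal transporter ZIP8, rose 2.53-fold (adjusted p = 0.00720, limma; 0.0678 after quantile normalization), with 68.6 to 153 reads in shA and 135 to 177 in shB. Lrp1, a scavenger receptor for haem bound to haemopexin among many ligands, rose 2.07-fold (adjusted p = 0.0293, limma), a call that was lost without any 1 of the 3 NTC libraries or without shA replicate 1, where the adjusted p reached at most 0.144. Slc22a17, the lipocalin receptor gene, fell from 1747, 1157 and 1222 in NTC to 834 to 1021 in the knockdown libraries, 1.48-fold (adjusted p = 0.0172, limma), a call that was lost without NTC replicate 1 (0.0772).

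Of 7 tested genes of export and systemic control, 3 rose (42.9%) and 1 fell (14.3%), beside 15.5% and 9.49% of all tested genes. There were 2 falls without shB replicate 1 and 0 without any NTC library, shA replicate 3, or shB replicate 2 or 3. Cp, encoding the ferroxidase ceruloplasmin, had 59.7, 40.2 and 40.3 normalized reads in NTC and 111 to 270 in the knockdown libraries, a 3.31-fold rise (log2 1.73, SE 0.34, limma adjusted p = 0.00562). Tmprss6, a protease that restrains hepcidin signalling in liver, rose from 2.25, 12.0 and 2.88 to between 21.3 and 58.5, at counts where the fold is imprecise (6.29-fold, adjusted p = 0.00706, limma). Each NTC value was under the filter of 20 reads, so Tmprss6 was tested only through the knockdown libraries. A call could then hardly be other than a rise, and nothing is read from it, although the counts of rises include it. The haem exporter gene Flvcr1 rose 1.27-fold (adjusted p = 0.0364, limma), a call lost without any NTC library, shA replicate 2 or 3, or shB replicate 2 or 3 (highest adjusted p 0.166). The related Flvcr2 fell 4.85-fold (adjusted p = 0.0416, limma), from 66.5, 50.2 and 80.6 to between 2.18 and 40.2. That call was lost without any NTC library, shA replicate 3, or shB replicate 2 or 3 (highest 0.142). Flvcr2 passed the filter through the NTC libraries, since only shA replicate 2 reached 20 reads among the knockdown libraries. A call for Flvcr2 could then hardly be other than a fall. Nothing is read from it, although the counts of falls include it. Erfe, the erythroid hormone that lowers hepcidin, had a log2 difference of -0.46 and did not pass in limma (adjusted p = 0.0761). It passed with DESeq2 (adjusted p = 0.0384), with library weights in limma (0.0147) and after quantile normalization (-0.69, 0.0202).

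Of 16 genes of haem synthesis and breakdown, 1 rose and 1 fell (6.25% each), beside 15.5% and 9.49% of all tested genes. There were 3 rises without shB replicate 1, 2 falls without shA replicate 2 and 0 falls without NTC replicate 1. Alas1, the first and rate-limiting enzyme of haem synthesis outside red cells, had 794, 679 and 714 normalized reads in NTC, 1469, 1467 and 1499 in shA and 1181, 1416 and 1529 in shB. It rose 1.95-fold (log2 0.97, SE 0.11, limma adjusted p = 0.000586), in the opposite direction to the lower level of Hmox1. Alas2, its erythroid form, which matched the IRE motif in its 5′ UTR, had 2300, 150 and 65.3 in NTC and 7.38 to 39.2 in the knockdown libraries, a fall of 12.6-fold (adjusted p = 0.0240, limma). The highest value was in the globin-rich NTC replicate 1, and without it the log2 change was -2.15 and the adjusted p 0.0692. Alas2 moved with the red blood cell markers, whose part in its fall was not tested. Blvrb had a log2 difference of 0.57 and did not pass in limma (adjusted p = 0.0630). It passed with DESeq2 (0.59, adjusted p = 0.0238) and with library weights in limma (0.80, adjusted p = 6.39e-05).

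None of the 4 genes of storage and release passed in limma, beside 15.5% higher and 9.49% lower of all tested genes. In that fit 2 of the 4 had an unadjusted p under 0.05. edgeR called 0 of them and DESeq2 called 1, Pcbp2, an iron chaperone gene. Ncoa4, the receptor that carries ferritin to the lysosome, had 1257, 1185 and 1164 normalized reads in NTC, 533, 967 and 834 in shA and 1154, 928 and 831 in shB, all below NTC (log2 -0.50, limma adjusted p = 0.0804, or 0.00260 with library weights). Pcbp2 had a log2 difference of -0.33 (limma adjusted p = 0.0546, or 0.00302 with library weights, and 0.0222 in DESeq2). Without shA replicate 2 or shB replicate 1, 2 of the 4 genes passed as falls. The shares of all genes at these other settings are not given, and nothing is read from counts over so few genes.

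Of 27 genes of mitochondrial iron and iron-sulphur cluster assembly, 0 passed in limma, beside 15.5% higher and 9.49% lower of all tested genes. Of the 27, 0 had an unadjusted p under 0.05, and edgeR and DESeq2 called 0. Their median log2 difference was 0.00. Without shB replicate 1, the muscle-rich library, 3 of them passed as rises. Bola3, which matched the IRE motif in its 3′ UTR, had a log2 difference of -0.13 (adjusted p = 0.684, limma).

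Of 11 regulator genes, 3 rose (27.3%) and 1 fell (9.09%), beside 15.5% and 9.49% of all tested genes. Zc3h12a, encoding Regnase-1, an RNase that cuts stem-loops in the Tfrc transcript and in cytokine transcripts, had 58.6, 51.2 and 54.7 normalized reads in NTC, 157, 144 and 104 in shA and 131, 165 and 147 in shB. It rose 2.54-fold (log2 1.35, SE 0.21, limma adjusted p = 0.00194). Zfp36, whose protein tristetraprolin binds and destabilizes AU-rich transcripts, rose 1.63-fold (adjusted p = 0.0194, limma), a call lost without NTC replicate 1 or 2 (highest 0.0835). Bach1, a haem-binding repressor of Hmox1 and the ferritin genes, had 698, 761 and 853 in NTC and 873 to 1302 in the knockdown libraries. It rose 1.37-fold (adjusted p = 0.0390, limma), a call lost without any NTC library, shA replicate 2 or shB replicate 2 (highest 0.166). Cul1, a scaffold of the ubiquitin ligase that removes IRP2, fell 1.46-fold (adjusted p = 0.0311, limma), a call lost without any NTC library, shA replicate 3, or shB replicate 2 or 3 (highest 0.118). The regulators' counts moved between 1 and 4 rises as single libraries were left out, with 1 rise without NTC replicate 1 or 2. There were 0 falls without any NTC library, shA replicate 3, or shB replicate 2 or 3.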

How the data were processed

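The 9 deposited tables, 1 per tumour library, list genes with normalized reads. Per the submitters' processing notes the tools include Cuffdiff 2.2.1 and the build mm9. The sources used here name no aligner or annotation and do not say whether counting used strand. The deposited signal values are whole reads per gene divided, by the authors, by 1 size factor per library: in each library 100% of values were whole multiples of 1 step within 0.001.

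Members and lists were chosen with earlier results of these data known. Genes with at least 20 normalized reads in at least 3 libraries (14600) were fitted with limma 3.58.1 (R 4.3.3), on log2(value + 0.5), with 3 groups and a trended empirical Bayes spread, and p-values were adjusted by the Benjamini-Hochberg method over those genes. All 10 members passed the filter. Recovered whole reads were also fitted with edgeR 4.0.16 and DESeq2 1.42.0. The text names the 10 members, up to 5 other iron genes per role with the smallest p, and the 5 genes nearest to 3 members; a gene under this rule is not reported here. The fit was tested on simulated data.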

Additional observations from a re-analysis of the deposited data

How the results depend on the processing

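The alternatives were other pseudocounts, filters and normalizations, no trend or a robust prior, library weights, a replicate block, edgeR and DESeq2 on recovered reads, fits to the compared groups alone, and left-out libraries. No called result changed direction. Differences near 0 did with 1 library left out: for shB against NTC, Ftl1 (-0.19 to 0.02), Ireb2 (-0.16 to 0.06) and Aco1 (-0.04 to 0.04), and for shA minus shB, Tfrc (-0.03 to 0.15), Slc40a1 (-0.04 to 0.11), Slc11a1 (-0.23 to 0.38), Slc11a2 (-0.02 to 0.01) and Steap3 (-0.03 to 0.35). Counts of other iron genes called moved as follows, given without the share of all genes at each setting. Rises with both shRNAs (11) became 24 with library weights, and 20 when each group's first replicate was left out. Falls (4) became 2 with a filter of 100 reads, without the trend or with the replicate block, 7 after quantile normalization, 15 with weights and 11 without the first replicates. For shA, rises (8) became 4 after quantile normalization, 16 with weights and 5 with the replicate block. Falls (0) became 1 with a pseudocount of 5, the replicate block, edgeR or the 2 groups alone, 4 after quantile normalization or without the first replicates, 5 with weights and 6 with DESeq2. For shB, rises (10) became 20 with weights and 18 without the first replicates. Falls (1) became 2 with a pseudocount of 1 or 5, edgeR or the 2 groups alone, 5 after quantile normalization, 14 with weights, 4 with DESeq2 and 11 without the first replicates. The cause was not tested. Leaving out single libraries gave 7 to 17 rises and 0 to 7 falls with both shRNAs, 4 to 13 and 0 to 4 for shA, and 7 to 13 and 0 to 4 for shB. The log2 difference of Gad1 stayed between -3.61 and -3.24.

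Replicate numbers do not pair the libraries: same-numbered deviations correlated between -0.34 and 0.06, and 0 of 9 libraries correlated best with their own number. With the replicate block, rises were 8 with both shRNAs, and the calls of Lrp1, Flvcr1, Flvcr2, Cul1 and Bach1 were lost (limma adjusted p 0.0534 to 0.0808). Without the trend, those of Lrp1, Flvcr2, Cul1 and Bach1 were (0.0527 to 0.0589). The weights were estimated gene by gene, a method chosen after the default did not converge. After quantile normalization the log2 difference of Slc40a1 was 0.36. With 3 libraries a group, and macrophage, globin and muscle reads that differ between libraries, small differences of tumour-cell transcripts are beyond what these data can resolve.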

Other observations

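Of the 84 other iron genes with values, 7 had too few reads to be tested, and 3 of these were highest in shA replicate 1. These 3 were picked out after their values were seen. That library was the highest for neutrophil markers. It was also the highest for T cell markers (4924 reads against at most 1833 elsewhere) and endothelial markers (8947 against at most 3250). Ltf, the lactoferrin gene of neutrophil granules, had 473 normalized reads there and at most 10.3 in the other 8 libraries. Lcn2, encoding the siderophore-binding lipocalin, had 231 there and at most 29.3 elsewhere. Cd163, the haemoglobin scavenger receptor gene of macrophages, had 122 there, 50.5 in shB replicate 1 and less elsewhere. Trf, the transferrin gene, was also highest in that library, at 4930 reads against 2085 to 2974 in the others. Its difference between both shRNAs and NTC was -0.05 on the log2 scale (limma adjusted p = 0.882).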
